A study of Mus musculus with 29 samples.

Results

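The genes described here encode the proteins of the cytosolic ribosome. They were taken by symbol, as every gene named Rpl or Rps with a number (and at most a letter and a further digit) plus Rplp0, Rplp1, Rplp2 and Rpsa, where its mean was at least 1 FPKM (fragments counted on a gene, divided by its length and by the size of the library) in a set of files. In the B cell files 83 of 84 matching symbols met this rule, out of 21819 genes. In the fibroblast files 80 of 84 did, out of 21675 genes, and 79 symbols were members in both sets, besides Rps3a of the B cell files, which the fibroblast files list as Rps3a1. The deposited series asks how genes respond to Myc, a transcription factor with a large part in growth control, in mouse B cells and in fibroblasts, with 29 samples in all.

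WT_spleen (n = 4) is B cells enriched from the spleen of C57BL/6 mice aged 6 to 8 weeks with magnetic beads against B220. Tg_spleen (n = 4) is the same preparation, at the same ages, from mice with the Eu-myc (Eµ-myc) transgene, a Myc gene driven in B lineage cells by an immunoglobulin heavy chain enhancer. Tg_lymphnode (n = 3) is cell suspensions of lymph node tumours from C57BL/6 mice with the transgene, labelled as B cells but not purified further, and the age of these mice is not given in the sources used here. The fibroblast samples are all 3T9 cells, from E13.5 embryos of a mixed strain, which carry c-myc flox/flox alleles and were infected in culture to express MycER, a Myc fused to an oestrogen receptor part that 4-hydroxytamoxifen (OHT) activates. OHT_0h received the solvent ethanol, and OHT_4h, OHT_8h and OHT_16h received 400 nM OHT for those times (n = 4 each). 4sU_0h and 4sU_4h hold RNA made during a pulse of 10 min with 300 µM 4-thiouridine (4sU), 1 library each. The sources do not say that replicates came from separate animals or cultures, so p-values measure only the spread between these samples, which may be technical.

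A ribosome is built from a small subunit, which reads the messenger RNA, and a large subunit, which joins the amino acids, and most of the proteins are needed in equal number. Most mammalian ribosomal protein messengers start with a C followed by an unbroken stretch of C and T, the 5′ terminal oligopyrimidine (TOP) motif, through which the mTOR pathway and the protein Larp1 control their translation. Ribosome production is a classic response to Myc, and some ribosomal proteins have paralogs, closely related genes that can take the place of the parent protein.

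The start of the gene is the sequence that members of this family are known to share, so it is shown for 8 members to which the results below return. Each line is 30 bases from RefSeq on build GRCm38.p6, read 5′ to 3′ on the gene's strand, with the annotated start of transcription as base 16, so that the first 15 bases are promoter and the last 15 are the first exon. Capitals mark the unbroken run of C and T that holds the start base, where there is one. Rps2, Rpl7a, Rps12, Rpl4 and Rpl22l1 were called higher in Tg_spleen whichever library was left out, and Rps18, Rpl15 and Rplp0 were so called in the tumours. Rpl4 and Rpl7a were chosen for naming after their values were seen.
Rps2, chr17:24720048-24720077 on the plus strand: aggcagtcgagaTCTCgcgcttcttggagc
Rpl7a, chr2:26910792-26910821 on the plus strand: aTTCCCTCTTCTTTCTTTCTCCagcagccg
Rps12, chr10:23787195-23787224 on the minus strand: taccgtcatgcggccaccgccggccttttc
Rpl4, chr9:64173372-64173401 on the plus strand: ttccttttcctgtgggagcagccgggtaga
Rpl22l1, chr3:28805493-28805522 on the plus strand: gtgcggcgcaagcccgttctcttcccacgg
Rps18, chr17:33955651-33955680 on the minus strand: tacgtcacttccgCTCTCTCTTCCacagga
Rpl15, chr14:18270972-18271001 on the minus strand: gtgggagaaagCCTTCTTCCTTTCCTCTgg
Rplp0, chr5:115559452-115559481 on the plus strand: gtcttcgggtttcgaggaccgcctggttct

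Rpl7a, Rps18 and Rpl15 showed the TOP-like run at the annotated start, Rps2 showed a short one, and the annotated start base of Rps12, Rpl4, Rpl22l1 and Rplp0 was not C or T. The promoter table held 74 promoters for 62 of the members, and 27.0% of those promoters had a run of at least 5 bases over the start, against 10.1% of 32851 promoters of all genes. The start base was C in 29.7% of the members' promoters and in 16.3% of all. CACGTG, the E-box that Myc binds with Max and which reads the same on both strands, stood between 250 bases before and 50 after the start in 10.8% of the members' promoters and in 7.15% of all. These are matches of letters at annotated starts, which can lie some bases from the start a cell uses.

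The deposited values put the members among the most abundant messengers of the B cell files. By mean FPKM over the 11 B cell libraries, Rplp1 (17394), a protein of the acidic stalk that recruits translation factors, had the highest mean, and Rpl8 (14271), a large subunit protein near the peptidyl transferase centre, was also among the highest. The median member stood at 2846 FPKM among small subunit proteins, 1878 among large subunit proteins and 222 among the 6 paralogs. A total of 44 of the 83 members lay at or above the 99th percentile of all genes. The lowest were Rpl3l (1.23), a paralog of Rpl3 known from muscle, Rpl39l (2.11), a paralog of Rpl39 known from testis, and Rpl26 (10.7), a core protein of the large subunit. Rpl3l and Rpl39l lay just inside the limit of the rule, and Rpl10l, listed at 0, lay outside it.

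In the fibroblast files the same family spanned a much narrower range. Rpl12 (128 FPKM), at the base of the acidic stalk, Rpl4 (116) and Rpl7a (114) had the highest means, and Rps24 (20.9), Rpl11 (28.9) and Rpl18 (29.1) the lowest. Rps4y2 (0.662), Rpl3l (0.469), Rpl10l (0.267) and Rpl39l (0.258) fell under the limit, so nothing lay near it on the upper side. The member at the 90th percentile was 2.51 times the member at the 10th in OHT_0h, against 63.2 times in WT_spleen. The 2 sets of files are on different scales, and a level cannot be compared between them. The order of the members was loosely shared, with a Spearman correlation of mean FPKM over 79 genes of 0.30, a description across genes that share libraries and are not independent. How reads that match several genes were assigned is not given in the sources used here, and its part in this order was not tested. Rpl26 and Rps23, a protein of the decoding centre, show the difference in order, with means of 104 and 100.3 FPKM in fibroblasts, above most members, and of 10.7 and 50.9 in B cells, below most.

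**Figure D1:**
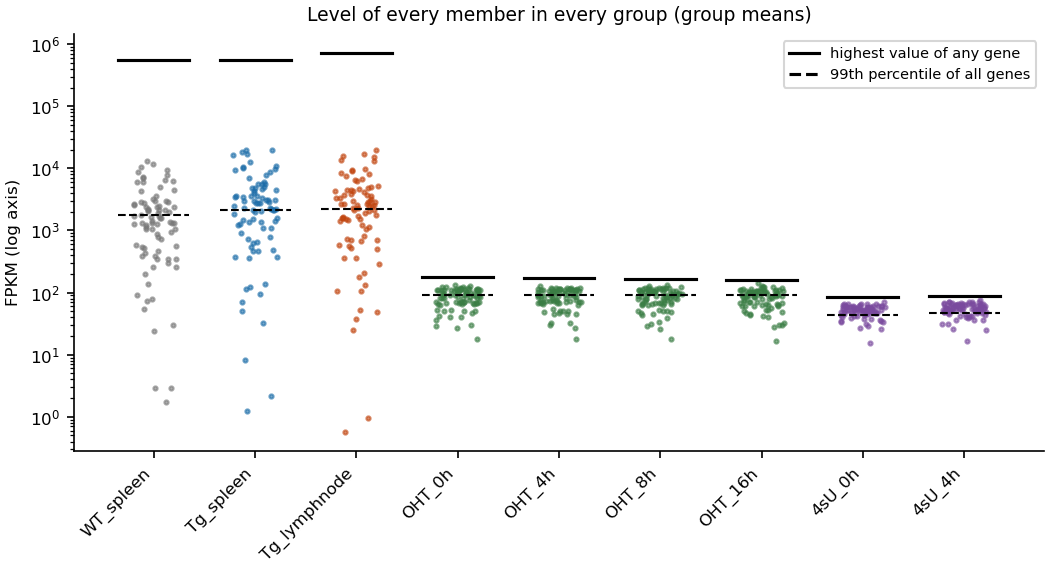
Mean FPKM of every member by group on a log axis, with 1 point per member. Dashed lines give the 99th percentile of all genes and solid lines the highest value of any gene, each as the mean over the group's libraries. The members spread over several orders of magnitude in the B cell groups. In the fibroblast groups they crowd below 200.6 FPKM, the highest value of any gene in a single fibroblast library.

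The narrow range goes with a ceiling in the fibroblast files that touches the family directly. The highest value of any gene was 138.6 to 200.6 FPKM in the 16 fibroblast libraries of total RNA and 85.2 and 87.8 in the 4sU libraries, against 230335 to 986814 in the B cell libraries. That top value was 1.64 to 2.14 times the 99th percentile in the fibroblast libraries and 126 to 498 times in the B cell libraries. Of the members, 31 to 38 lay above the 99th percentile in each fibroblast library of total RNA, and 64 and 62 in the 4sU libraries. How far the ceiling limits the changes that these files can show was not tested.

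The libraries were checked against their labels before any comparison. Myc stood at 226 ± 34.7 FPKM in WT_spleen (SD, n = 4), 1556 ± 604 in Tg_spleen (n = 4) and 2020.4 ± 228 in the tumours (n = 3), without overlap between WT_spleen and either. In fibroblasts the Myc symbol, which also counts any reads of the MycER messenger that map to the gene, was at 24.3 ± 3.98 FPKM at 0 h and at 10.8, 12.5 and 9.78 at 4, 8 and 16 h. Fibroblast libraries carried the fibroblast markers Col1a1 (98.6 FPKM at 0 h) and Vim (115) and almost no Cd79a (0.571), a part of the B cell receptor. Tumour replicate 3 went against its B cell label, with the B cell markers Cd79a at 55.6 FPKM, where WT_spleen had 2885 to 3764, and Ms4a1 at 137.1, where WT_spleen had 7455 to 9963, and with the T cell markers Cd4 at 9468 and Cd8b1 at 7615. The 8 B cell markers summed to 3834 to 21723 FPKM over the tumours, to 25377 to 38567 in Tg_spleen and to 42640 to 46996 in WT_spleen. The 9 acinar gland markers summed to 3109 to 14106 FPKM in the tumours and to 47.0 to 133 in WT_spleen. In such bulk samples, fewer cells of a type and less RNA per cell cannot be told apart.

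The first comparison asked how the ribosomal protein genes differ in B cells that carry the transgene before a tumour is seen. The members that passed the test in Tg_spleen over WT_spleen were all higher and came from both subunits. limma, on log2(FPKM + 0.5) with Benjamini-Hochberg adjustment over all genes and a call at an adjusted p under 0.05, called 36 of 83 members higher (43.4%) and 0 lower, where it called 15.7% of the 14021 genes tested higher and 12.2% lower. At an unadjusted p under 0.05 the counts were 58 higher and 0 lower. Here and below, counts at this limit were made for members alone, with no share over all genes beside them. The median member had a log2 fold change of 0.67, against -0.05 over all genes tested. Above 0 were 79 of 83 members and 6555 of the 14021 genes. In 31 members every Tg_spleen library lay above every WT_spleen library, as in 16.9% of all genes. Small subunit proteins gave 13 of 31 called and large subunit proteins 21 of 46, with medians of 0.67 in each, and the paralogs 2 of 6.

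**Figure D2:**
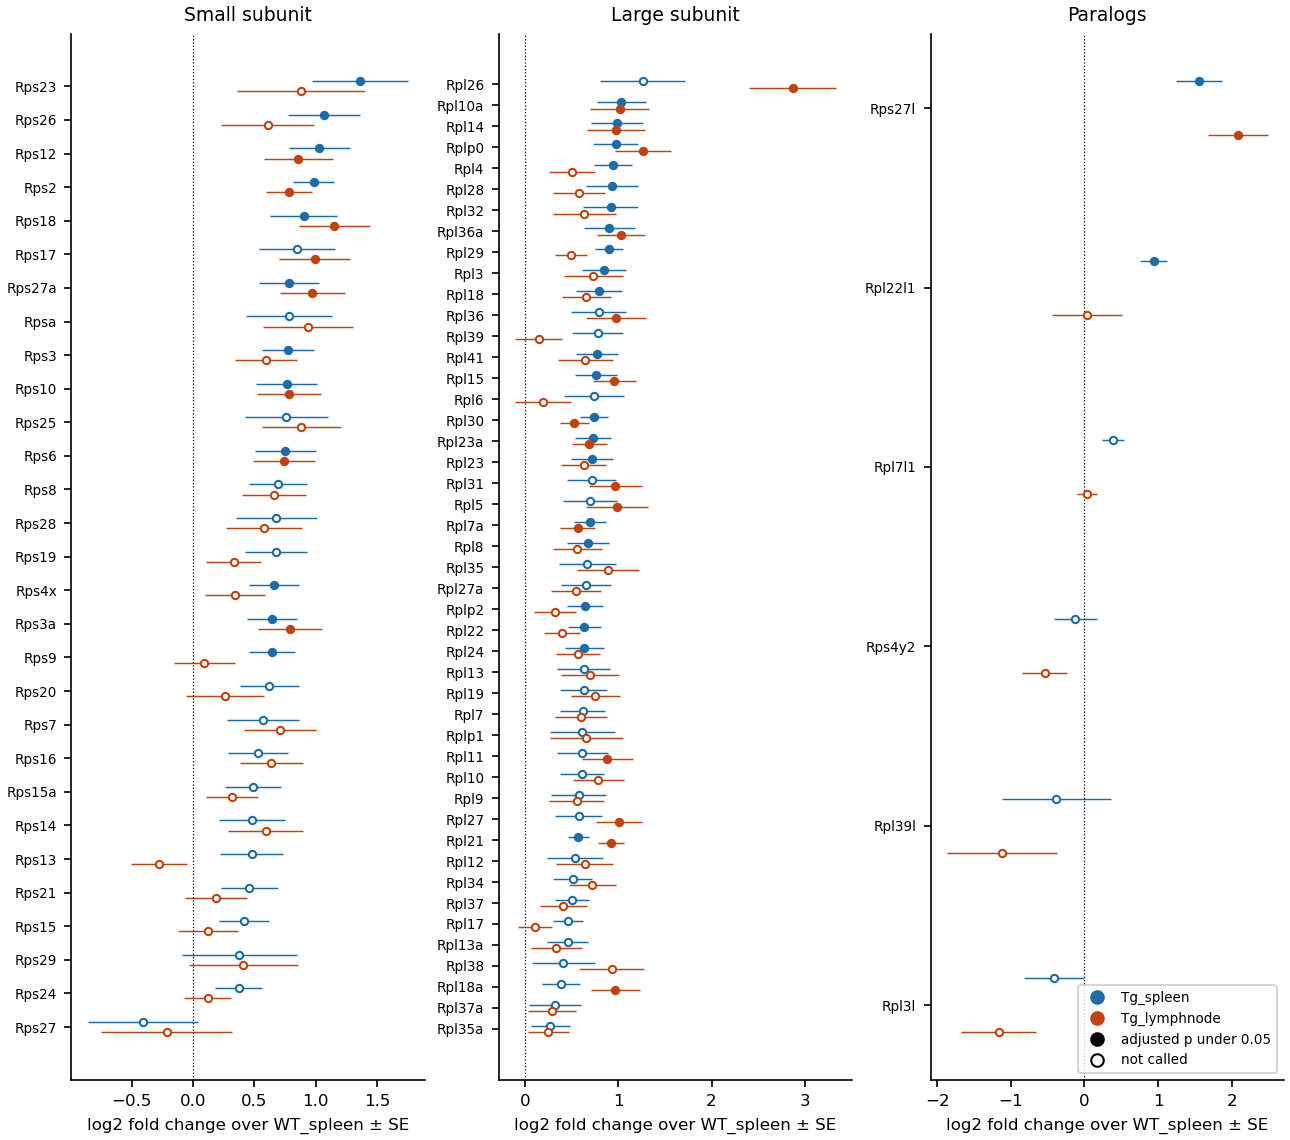
Log2 fold change with its standard error for each member in Tg_spleen (n = 4) and in the lymph node tumours (n = 3), each over WT_spleen (n = 4), in panels of small subunit, large subunit and paralog genes, with filled points for adjusted p under 0.05 and 2 members not shown. Nearly all points lie above 0, and the highest are Rps27l at 1.55 in Tg_spleen and Rpl26 at 2.87 in the tumours.

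The members' values also shifted largely together from library to library within a group. The members' FPKM summed to 196340, 237728, 145590 and 225218 in WT_spleen replicates 1, 3, 4 and 6 (201219 ± 40936, SD, n = 4) and to 292145, 360766, 256116 and 389440 in Tg_spleen replicates 2, 3, 4 and 5 (324617 ± 61253, n = 4). The lowest Tg_spleen sum stood above the highest WT_spleen sum. WT_spleen replicate 4 was the lowest of its group for 71 of 83 members and WT_spleen replicate 3 the highest for 43. Among Tg_spleen libraries, replicate 4 was the lowest for 50 members and replicate 5 the highest for 43. The 99th percentile of all genes was also lowest in WT_spleen replicate 4, at 1539 FPKM. In Tg_spleen it was lowest in replicate 2, at 1977. No such counts were made for all genes, and whether the shift was particular to the family was not tested. The members made up 3.42 to 5.45% of all FPKM in WT_spleen and 4.68 to 7.66% in Tg_spleen, ranges that overlap.

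**Figure D3:**
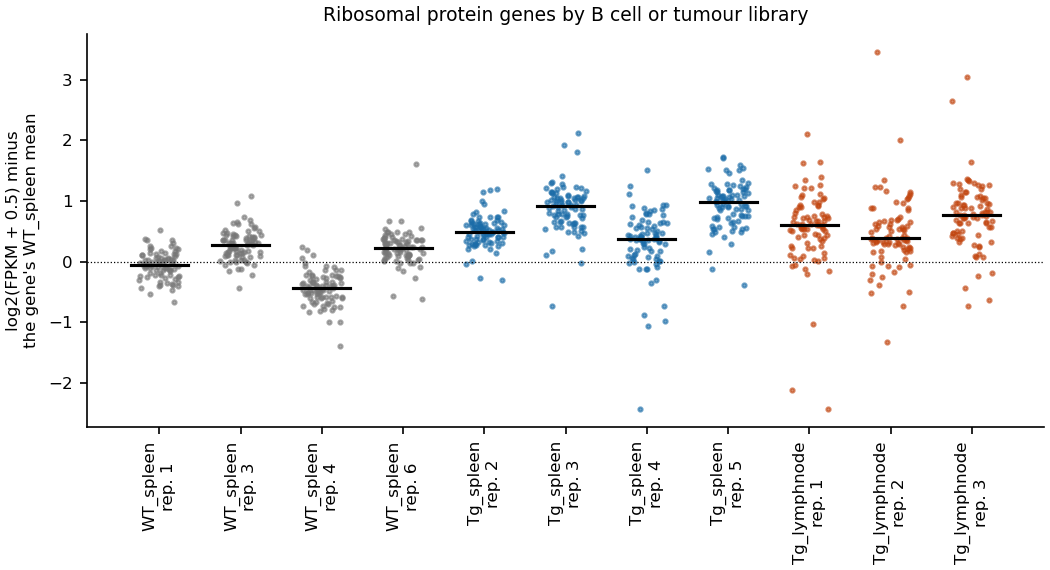
Deviation of every member from its WT_spleen mean, on the log2 scale, in each of the 11 B cell libraries, with 1 point per member. The points of a library shift together, lowest in WT_spleen replicate 4, and the Tg_spleen and tumour libraries lie mostly higher, with Tg_spleen replicate 4 close to WT_spleen replicate 3.

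The count of calls depended on single libraries and on the scaling. It was 9 without WT_spleen replicate 4 (10.8% of members, against 9.42% of all genes), 10 without WT_spleen replicate 1 (12.0% against 10.0%), 11 without Tg_spleen replicate 3 (13.3% against 12.9%) and 11 without Tg_spleen replicate 5 (13.3% against 10.3%). After quantile normalization it was 11 (13.3% against 14.5%). In each of these the members' share was near that of all genes, with 0 lower, and the members' medians were 0.36 to 0.62. The B cell libraries also differed in Rpph1, the RNA of RNase P, which took 545353 to 735331 FPKM in WT_spleen replicates 1 and 3 and Tg_spleen replicates 2 and 3 and 153474 to 215865 in the other WT_spleen and Tg_spleen libraries. Within the libraries of high and of low Rpph1, with 2 libraries a group, the median member was at 0.62 and 0.73. Called higher were 7 members in the high set (8.43%, against 6.39% of all genes) and 6 in the low set (7.23%, against 13.7%).

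Rps27l had the largest rise and held under every alternative setting tried. This paralog of Rps27 is a known target of p53. It stood at 523, 599.8, 202 and 422 FPKM in WT_spleen and at 912, 1413, 1146 and 1343 in Tg_spleen. No Tg_spleen library came near the WT_spleen range, and the rise was 2.93-fold (log2 fold change 1.55, SE 0.31, limma adjusted p = 0.00806, n = 4 and 4). Its parent Rps27 stood at 153, 235, 45 and 125 FPKM in WT_spleen and at 97.0, 128, 56.8 and 90.7 in Tg_spleen. Those groups overlapped (log2 fold change -0.41, SE 0.45, limma adjusted p = 0.512). The ratio of Rps27l to Rps27 was 2.56 to 4.49 in WT_spleen and 9.40 to 20.2 in Tg_spleen, with no overlap.

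Among the small subunit proteins, Rps2, a protein at the messenger's entry, was at 374, 471, 527 and 494 FPKM in WT_spleen and at 821, 760.3, 1002 and 1123 in Tg_spleen. The groups did not overlap, and the rise was 1.98-fold (log2 fold change 0.98, SE 0.17, limma adjusted p = 0.00468). Rps12 went from 1663, 2108, 1235 and 2066 FPKM to 2682, 4056, 2930.1 and 4895, again without overlap (log2 fold change 1.03, SE 0.25, limma adjusted p = 0.0157). Rps26, at the messenger's exit and a gene of the inherited failure of red cell production called Diamond-Blackfan anaemia, was at 2853, 3644, 1532 and 2798 FPKM in WT_spleen and at 4542, 5676, 4297 and 7804 in Tg_spleen. Every Tg_spleen library lay above the WT_spleen range (log2 fold change 1.07, limma adjusted p = 0.025). Rps23 was at 32.7, 56.0, 14.5 and 17.6 FPKM against 60.9, 101, 63.0 and 56.1, groups that all but touch (log2 fold change 1.36, SE 0.39, limma adjusted p = 0.0295).

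Rps6, the small subunit protein that S6 kinases phosphorylate, was at 932, 1311, 1039 and 1768 FPKM in WT_spleen and at 1698, 2409, 1608 and 2747 in Tg_spleen. The groups overlapped, and the gene passed the test narrowly (log2 fold change 0.75, SE 0.25, limma adjusted p = 0.048). Rps27a, made as a fusion with ubiquitin, was at 1028, 1596, 1002 and 1774 FPKM against 1724, 2986, 2252 and 2209 (log2 fold change 0.78, limma adjusted p = 0.0382). Only Tg_spleen replicate 2 fell within the WT_spleen range. Rpsa, the small subunit protein also known as the laminin receptor, did not pass, with 1995, 3481, 1274 and 2796 FPKM against 2940.2, 5454, 2608 and 5173 (log2 fold change 0.78, limma adjusted p = 0.122).

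In the acidic stalk, whose proteins carry the translation factors to the large subunit, Rplp0 and Rplp2 passed and Rplp1 did not. Rplp0, which anchors the stalk, was at 5772, 8528, 4660.2 and 7023 FPKM in WT_spleen and at 10486, 13118, 11311 and 15270.5 in Tg_spleen. The groups did not overlap (1.96-fold, log2 fold change 0.97, SE 0.24, limma adjusted p = 0.0172). Rplp2 was at 1608, 2318, 1979 and 2559 FPKM against 3014, 3110.3, 3044 and 3966 (log2 fold change 0.65, SE 0.19, limma adjusted p = 0.0328). Rplp1 was at 12653, 20573, 7422 and 12213 FPKM against 19118, 26223, 12426 and 20764, with overlap and a wider spread (log2 fold change 0.61, SE 0.35, limma adjusted p = 0.204). Whether the 3 stalk genes differ in their change was not tested.

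The 5S particle proteins Rpl5 and Rpl11, which with 5S ribosomal RNA bind the p53 regulator Mdm2, did not pass in Tg_spleen. Rpl5 was at 2141, 3524, 1733 and 3472 FPKM in WT_spleen and at 3174, 5384, 3514 and 5200.0 in Tg_spleen (log2 fold change 0.70, SE 0.29, limma adjusted p = 0.0947). Rpl11 was at 1275, 1761, 909 and 1771 FPKM against 1668, 2798, 1619 and 2614 (log2 fold change 0.61, limma adjusted p = 0.116). In both genes the Tg_spleen libraries overlapped the upper WT_spleen libraries.

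Several large subunit proteins rose with a narrow spread between libraries. Rpl29 was at 201, 234, 181 and 186 FPKM in WT_spleen and at 317, 376, 342 and 470.4 in Tg_spleen, and had the smallest adjusted p of the family (log2 fold change 0.90, SE 0.15, limma adjusted p = 0.00434). Rpl21 was at 91.8, 99.8, 84.6 and 95.5 FPKM against 134, 139, 149.8 and 131 (log2 fold change 0.57, SE 0.12, limma adjusted p = 0.00834). Rpl30 was at 69.3, 81.0, 68.3 and 74.0 FPKM against 103, 148, 137 and 106 (log2 fold change 0.74, SE 0.15, limma adjusted p = 0.0092). In these 3 genes the lowest Tg_spleen library stood clear of the highest WT_spleen library. Rpl10a, the protein of the L1 stalk through which used transfer RNA leaves, was at 895, 1554, 977 and 1450.3 FPKM against 1752, 2664, 2142 and 3462 (log2 fold change 1.03, SE 0.26, limma adjusted p = 0.0177). Rpl8 was at 10249.6, 12588, 8252 and 11491 FPKM against 14797, 16404, 15739.7 and 20838 (log2 fold change 0.68, limma adjusted p = 0.0478), also without overlap.

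Paralogs and parents were set side by side. Rpl22l1 was at 661, 563, 483 and 569 FPKM in WT_spleen and at 1246, 1238, 764 and 1179 in Tg_spleen (log2 fold change 0.94, SE 0.19, limma adjusted p = 0.0076). Its parent Rpl22, which is known to hold down Rpl22l1, was at 1527, 1373, 1013 and 1286 FPKM against 1966, 2204, 1669.8 and 2196 (log2 fold change 0.63, SE 0.18, limma adjusted p = 0.0253). Both were higher in every Tg_spleen library than in any WT_spleen library, and their ratio was 0.410 to 0.476 in WT_spleen and 0.458 to 0.634 in Tg_spleen, ranges that overlap.

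Rpl7l1 was at 349, 317, 333 and 415 FPKM against 427, 395, 464 and 578 (log2 fold change 0.39, limma adjusted p = 0.0771), and Rpl7 at 4867, 5029.5, 3712 and 6429 against 6537, 8326, 6026 and 9805 (log2 fold change 0.62, limma adjusted p = 0.0772), and neither passed. Rpl3, which helps shape the peptidyl transferase centre, passed with 1313, 1692, 1172 and 2164 FPKM against 2096, 2849.7, 2820.4 and 3495 (log2 fold change 0.85, SE 0.23, limma adjusted p = 0.0254). Its paralog Rpl3l, near the lower limit of the files, was at 2.6, 1.7, 1.3 and 1.3 FPKM against 2.0, 0.8, 0.6 and 1.5 (log2 fold change -0.41, limma adjusted p = 0.474). Rps4x passed with 2929, 2976, 2449.7 and 3762 FPKM against 4098, 4722, 4162 and 6211 (log2 fold change 0.66, limma adjusted p = 0.0388). Rps4y2, which RefSeq lists as a transcribed pseudogene, was at 50.1, 69.8, 36.0 and 61.2 FPKM against 43.7, 51.8, 31.5 and 77.0 (log2 fold change -0.12, limma adjusted p = 0.779). Rpl39 was at 2373, 2468, 1406 and 2072 FPKM against 4053, 4500.5, 2127 and 3794 (log2 fold change 0.78, limma adjusted p = 0.0576). Rpl39l was at 1.5, 1.5, 1.1 and 7.7 FPKM against 3.4, 2.6, 0 and 2.5 (log2 fold change -0.38, limma adjusted p = 0.722). The low paralogs showed overlapping groups, Rps4x was higher in every Tg_spleen library than in any WT_spleen library, and in Rpl3 only Tg_spleen replicate 2 fell within the WT_spleen range.

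**Figure D4:**
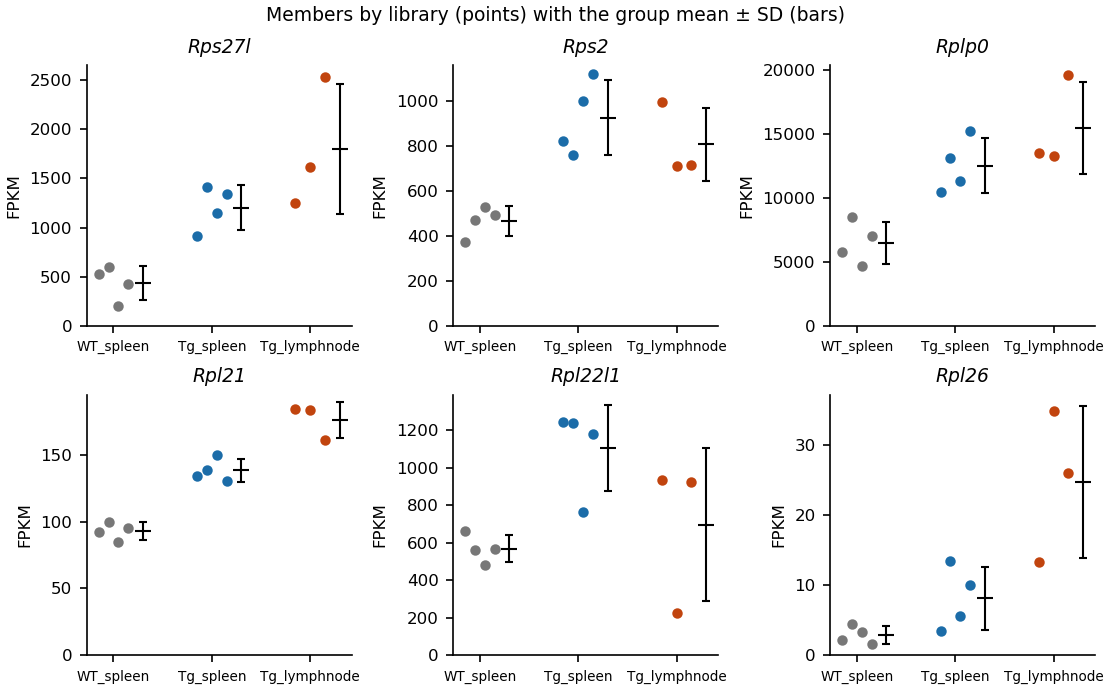
FPKM of Rps27l, Rps2, Rplp0, Rpl21, Rpl22l1 and Rpl26 in each B cell library, with the group mean and SD as bars (WT_spleen n = 4, Tg_spleen n = 4, Tg_lymphnode n = 3). Rps27l, Rps2, Rplp0, Rpl21 and Rpl22l1 do not overlap between WT_spleen and Tg_spleen, and tumour replicate 2 is low in Rpl22l1 at 226 FPKM.

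The sequence at the start was set beside the calls, as a description with no test. Of the members with a promoter in the table, 9 of 26 called higher and 11 of 35 not called had a run of C and T of at least 5 bases over the start. CACGTG stood in 2 of the 26 and 4 of the 35. The median log2 fold change was 0.66 in the 20 members with the run and 0.67 in the 41 without. Rpl7a, with its long run, had a log2 fold change of 0.69, and Rpl4, whose annotated start base is not C or T, had 0.94.

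Ribosomal protein genes have many processed pseudogenes, and a short read can match both. In the median member 37.1% of all stretches of 50 bases of its transcripts also occurred in another gene's annotated transcripts, and 11 other genes shared at least 1. The share was 85.4% in Rpl5, 84.6% in Rps6, 81.2% in Rpl7a and 72.8% in Rpl30, and it was 0 in Rpl3l and Rpl39l. How such reads were assigned is not given in the sources used here, so values of members with a large share are uncertain. Over 82 members the Spearman correlation of this share with the B cell mean level was -0.05 and with the log2 fold change in Tg_spleen 0.28, both descriptions across genes that are not independent.

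Genes that work with the family were counted in the same fit, which called 15.7% of all genes higher and 12.2% lower. Of 4 further ribosomal protein genes outside the rule, 1 rose, Gnb2l1, which encodes the ribosome-bound scaffold RACK1 (log2 fold change 0.78, limma adjusted p = 0.0251). Of 20 chaperones and late assembly factors of ribosomal proteins, 12 rose and 0 fell, among them Nob1, which cuts the precursor of the small subunit's RNA (log2 fold change 1.13, limma adjusted p = 0.00351). Of 15 other genes listed for TOP messengers, 9 rose, and among them the nucleolar chaperone Npm1 rose from a mean of 1680 to 5601 FPKM (log2 fold change 1.70, limma adjusted p = 0.00219). Of 12 regulators of TOP messengers, 4 rose, among them the cap-binding protein Eif4e (log2 fold change 0.77, limma adjusted p = 0.0175). Mitochondrial ribosomal proteins, which belong to another ribosome, gave 50 of 76 higher with a median of 0.66, so the rise was not restricted to the cytosolic ribosome. Markers of other cells moved too: 4 of 8 B cell markers fell, among them Cd22 (log2 fold change -0.99, limma adjusted p = 0.0155), and so did 2 of 9 T cell and 4 of 6 NK cell markers, while 0 of 8 macrophage markers were called. Their part in the result was not tested.

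The second comparison set the lymph node tumours against WT_spleen, the same 4 control libraries as above, so the values of the 2 comparisons are not independent. limma called 25 of 83 members higher (30.1%) and 0 lower, where it called 20.3% of the 14758 genes tested higher and 17.7% lower. At an unadjusted p under 0.05 the counts were 41 and 0, again for members alone. The median member had a log2 fold change of 0.63 against 0.05 over all genes. Above 0 were 77 of 83 members and 7690 of the 14758 genes. All tumours lay above all WT_spleen libraries in 39 members, as in 24.0% of all genes. By subunit, 8 of 31 small subunit proteins, 16 of 46 large subunit proteins and 1 of 6 paralogs were called.

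The members' FPKM summed to 288708, 258957 and 353918 in tumour replicates 1, 2 and 3 (300527 ± 48571, SD, n = 3), each above the highest WT_spleen sum of 237728. Tumour replicate 3, the library without B cell markers, was the highest tumour for 53 of 83 members. Without it 17 members were called higher (20.5%, against 22.9% of all genes), 0 lower, and the median was 0.50. The count was 9 without WT_spleen replicate 1 (10.8% against 16.0%), 10 without WT_spleen replicate 4 (12.0% against 16.3%) and 13 without tumour replicate 1 (15.7% against 18.5%). Quantile normalization gave 12 higher (14.5% against 17.9%) and 2 lower, with a median of 0.31. In each of these the members' share of calls was below that of all genes.

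Rpl26 stood out in the tumours by the size of its change. This protein lies near the exit tunnel of the large subunit and is also known to bind the p53 messenger. It was at 2.2, 4.4, 3.3 and 1.6 FPKM in WT_spleen, at 3.4, 13.4, 5.6 and 10.0 in Tg_spleen and at 13.3, 34.8 and 25.9 in the tumours. The tumours lay above all WT_spleen libraries (7.31-fold, log2 fold change 2.87, SE 0.47, limma adjusted p = 0.00253) on levels far under those of the rest of the family, and 12 other genes share stretches of its transcripts. Tg_spleen against WT_spleen did not pass for this gene (log2 fold change 1.26, SE 0.45, limma adjusted p = 0.0625).

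Rps27l was also higher in the tumours, at 1245, 1616 and 2535 FPKM (4.25-fold over WT_spleen, log2 fold change 2.09, SE 0.40, limma adjusted p = 0.00562). Rps27 was at 151, 100.5 and 71.2 FPKM (log2 fold change -0.22, limma adjusted p = 0.774). The ratio of Rps27l to Rps27 was 8.24 to 35.6, above the WT_spleen range in every tumour.

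Rplp0 was at 13496, 13325 and 19652 FPKM in the tumours (2.40-fold, log2 fold change 1.27, SE 0.30, limma adjusted p = 0.0124). Every tumour exceeded the highest WT_spleen library, at 8528. The other stalk genes did not pass, with Rplp1 at 18723, 15279.8 and 25942 FPKM (log2 fold change 0.65, limma adjusted p = 0.221) and Rplp2 at 3029, 2333 and 2494 (log2 fold change 0.32, limma adjusted p = 0.287). The 5S particle genes passed here: Rpl5 was at 3715, 5733 and 6351 FPKM (log2 fold change 0.98, SE 0.33, limma adjusted p = 0.0481) and Rpl11 at 2584, 2175 and 2914 (log2 fold change 0.88, SE 0.27, limma adjusted p = 0.0352). That they passed against WT_spleen in the tumours and not in Tg_spleen is no test of a difference between the tumours and Tg_spleen.

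Rpl21 had the smallest adjusted p, at 184, 184 and 161 FPKM (log2 fold change 0.92, SE 0.14, limma adjusted p = 0.00177). Rps18, a protein of the small subunit's head whose start carries a TOP-like run, was at 7264, 5179 and 6865 FPKM against 2702, 3560.4, 1914 and 3659 in WT_spleen (log2 fold change 1.15, SE 0.29, limma adjusted p = 0.0154). Rpl15, with a similar run, was at 718, 787 and 709 FPKM against 343, 538, 268 and 422 (log2 fold change 0.95, SE 0.23, limma adjusted p = 0.0137). In these 3 genes no tumour came down to the WT_spleen range. Rpl36a was at 927, 1238 and 1276 FPKM against 541, 745, 365 and 647 (log2 fold change 1.03, SE 0.26, limma adjusted p = 0.016). Rpl10a was at 3131, 1549 and 2825 FPKM (log2 fold change 1.01, SE 0.32, limma adjusted p = 0.0356), and tumour replicate 2 fell within the WT_spleen range. Rps2 was at 997, 709.5 and 717 FPKM (log2 fold change 0.78, SE 0.19, limma adjusted p = 0.0129).

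Of the other proteins named for every comparison, Rps6 (2051, 1772 and 2359.7 FPKM, log2 fold change 0.74, limma adjusted p = 0.0486) and Rps27a (2154, 3076 and 2549.9 FPKM, log2 fold change 0.97, limma adjusted p = 0.0222) passed. Rpsa (3818, 3571 and 5748 FPKM, log2 fold change 0.94, limma adjusted p = 0.0753), Rpl8 (16075, 13777 and 16771 FPKM, log2 fold change 0.56, limma adjusted p = 0.128) and Rpl3 (2587, 1736 and 3715 FPKM, log2 fold change 0.73, limma adjusted p = 0.104) did not.

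Rpl22l1 split the tumours, at 938 and 927 FPKM in replicates 1 and 3 and at 226 in replicate 2, against 483 to 661 in WT_spleen. Its log2 fold change was 0.04 (SE 0.48, limma adjusted p = 0.954), and without tumour replicate 2 it was 0.72 and called. Rpl22 was at 1763, 1510.1 and 1819.5 FPKM (log2 fold change 0.40, limma adjusted p = 0.141), so the ratio of Rpl22l1 to Rpl22 ran from 0.150 to 0.532 in the tumours. Among the remaining paralogs and parents none passed: the log2 fold change was 0.04 for Rpl7l1, 0.60 for Rpl7, -1.16 for Rpl3l, -1.12 for Rpl39l, 0.14 for Rpl39, 0.34 for Rps4x and -0.54 for Rps4y2.

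Of the pathway lists, 12 of 20 chaperones and assembly factors rose, among them Heatr3, which brings Rpl5 to the nucleus (log2 fold change 1.43, limma adjusted p = 2.8e-04). Of 12 regulators of TOP messengers 4 rose, among them Larp1 (log2 fold change 1.34, limma adjusted p = 9.09e-04), and 2 fell (16.7%). Of 15 other TOP genes 3 rose (20%), among them Npm1 (log2 fold change 1.87, limma adjusted p = 2.7e-04), and of 76 mitochondrial ribosomal proteins 44, with a median of 0.67. Of all genes tested 20.3% were called higher and 17.7% lower. The shares of other TOP genes called higher and of regulators called lower were thus near those of all genes. Beside these, 8 of 8 fibroblast markers, 9 of 9 acinar markers and 3 of 9 T cell markers were called higher, while 3 of 8 B cell, 6 of 8 macrophage and 5 of 6 NK cell markers were called lower. The tumours and WT_spleen thus differed in markers of several cell types, whose part in the ribosomal protein values was not tested.

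Set directly against Tg_spleen, with libraries used above on both sides, the tumours gave 0 members called higher and 0 lower of 82 tested by limma, where 3.56% of 14692 genes were called higher and 2.39% lower. At an unadjusted p under 0.05, 1 member was higher, Rpl26, and 2 were lower, Rps13 among them. The median member was at -0.05 and the median standard error of a member was 0.29, so the absence of calls does not show that the levels were equal. Rpl26 had a log2 fold change of 1.61 (limma adjusted p = 0.125). Rps13, a small subunit protein, was at 317, 385, 234 and 508 FPKM in Tg_spleen and at 236, 174 and 211 in the tumours (log2 fold change -0.76, limma adjusted p = 0.141). The lowest values were -0.90 for Rpl22l1, -0.76 for Rps13 and -0.74 for Rpl39l. The summed small subunit FPKM over the summed large subunit FPKM was 0.786 to 0.903 in WT_spleen, 0.797 to 0.854 in Tg_spleen and 0.739 to 0.799 in the tumours, so the lowest ratios were in tumours and the ranges of tumours and Tg_spleen touched.

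In the fibroblasts the question was how the family responds when MycER is switched on. No member was called at any time. limma gave 0 higher and 0 lower of 80 members at 4, 8 and 16 h, where over all 12934 genes it called 1.9% higher and 2.88% lower at 4 h, 1.21% and 0.982% at 8 h and 1.76% and 7.75% at 16 h. At an unadjusted p under 0.05 the members' counts were 0 and 0 at 4 h, 0 and 0 at 8 h, and 0 higher and 1 lower, Rpl10, at 16 h. The 3 comparisons share the OHT_0h libraries. Members' log2 fold changes ran from -0.19 to 0.18 at 4 h, from -0.19 to 0.18 at 8 h and from -0.20 to 0.13 at 16 h, with a median standard error of 0.11 for each time. Their medians were -0.01, -0.01 and -0.03, beside -0.04, -0.06 and -0.14 over all genes. The 16 h median of all genes moved to 0.01 under 2 other scalings, with the members' median 0.12 above it under median ratio scaling and 0.01 under quantile normalization, against 0.11 as deposited. Among the 11 members under 50 FPKM, which lie farther from the ceiling, 0 were called at any time, with medians of 0.03, -0.04 and -0.01. At the shares of all genes given above, few calls could arise among 80 members at 4 and 8 h, and few among 11 at any time. The count for the 11 therefore does not bear on the ceiling.

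**Figure D5:**
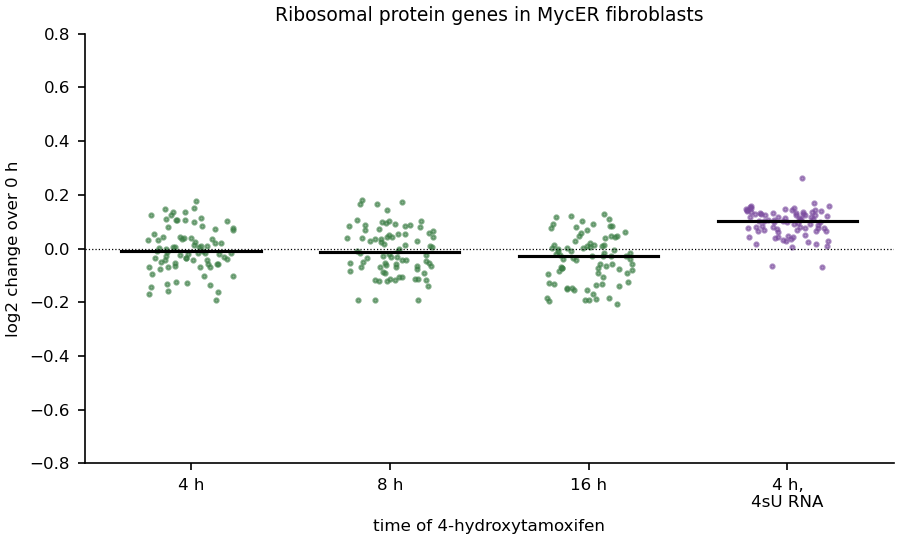
Log2 change of every member at 4, 8 and 16 h of OHT over 0 h in total RNA (limma, n = 4 each) and at 4 h over 0 h in 4sU RNA (1 library each, no test), with 1 point per member. Points in total RNA lie between -0.20 and 0.18 around 0, and those in 4sU RNA between -0.07 and 0.26, mostly above 0.

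Values by library show how small the members' changes were. Over all genes the changes were small too, with quartiles of -0.19 and 0.10 at 4 h. How far the ceiling limits the members' changes was not tested. The stalk gene Rplp0 was at 132, 105, 126 and 106 FPKM at 0 h, at 97.3, 102, 103 and 117 at 4 h, at 109, 94.1, 107 and 99 at 8 h and at 104, 95.2, 118 and 93.3 at 16 h. Its log2 fold changes of -0.16, -0.19 and -0.19 (SE 0.10, limma adjusted p = 0.493, 0.440 and 0.258) were among the lowest of the family, and the groups overlapped. Rplp2 was close to it, at 138, 112, 134 and 113 FPKM at 0 h and at 115, 97.1, 129 and 95.4 at 16 h, with log2 fold changes of -0.13, -0.19 and -0.19 at 4, 8 and 16 h. Rplp1, of the same stalk, was at 125, 116, 102 and 119 FPKM at 0 h and at 113, 102, 109.6 and 107 at 16 h, with log2 fold changes of -0.03, 0.07 and -0.09.

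Rpl10, a late-joining large subunit protein, gave the lowest change at 16 h. It was at 103, 123, 97.4 and 132 FPKM at 0 h and at 96.5, 98.2, 101 and 96.2 at 16 h. Only OHT_0h replicate 3 fell within the 16 h range (log2 fold change -0.20, limma adjusted p = 0.199). Rpl31 had the lowest change at 4 h, from 43.1, 60.6, 47.7 and 55.3 FPKM to 42.9, 43.7, 47.9 and 44.7 (log2 fold change -0.19), and the groups overlapped. Rps2, one of the clearest genes in B cells, was at 68.2, 66.7, 78.6 and 61.4 FPKM at 0 h and at 83.8, 67.9, 82.7 and 66.4 at 4 h, with log2 fold changes of 0.13, -0.01 and -0.07. Rps24, another Diamond-Blackfan anaemia gene and the lowest member here, was at 18.5, 17.2, 16.6 and 17.9 FPKM at 0 h and at 17.5, 16.6, 18.1 and 13.8 at 16 h (log2 fold change -0.09). Rpl12, the highest, was at 129, 132, 129 and 144 FPKM at 0 h and at 169, 122, 156 and 125 at 16 h (log2 fold change 0.09).

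The summed FPKM of the members was 6209 to 7033 over the 16 libraries. OHT_16h replicate 2 had the lowest sum and was the lowest of its group for 48 of 80 members. In the lists around the family, 0 of 15 other TOP genes and 0 of 12 regulators were called at 4, 8 or 16 h. Of all genes, 1.21 to 1.9% were called higher and 0.982 to 7.75% lower, so few calls could arise in lists of this size. The regulators' log2 fold changes spread more widely than the members'. They ran from -0.14 to 0.63 at 4 h, from -0.19 to 0.43 at 8 h and from -0.33 to 0.49 at 16 h. Of 20 chaperones and assembly factors 1 was called, Pdcd2, a chaperone of Rps2, which was higher at 4 h (log2 fold change 0.37, limma adjusted p = 0.0249) and at 16 h (0.39, limma adjusted p = 0.0106). Of 75 mitochondrial ribosomal proteins, 1 was called higher at 4 h, 0 at 8 h and 1 lower at 16 h.

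RNA made during the 4sU pulse gave small and even shifts, with 1 library a time and therefore no test. The members' log2 ratio of FPKM + 0.5 at 4 h over 0 h had a median of 0.10, against 0.02 over 11856 genes. Above 0 were 78 of 80 members and 6388 of the 11856 genes. The 182 genes at or above the members' lower quartile at 0 h, members among them, had a median of 0.08, with 141 above 0. The 99th percentile of all genes was 43.2 FPKM at 0 h and 47.2 at 4 h. Many members lay above it, so neither this percentile nor the 182 genes were independent of the family. Whether the shift was particular to the family was not tested. No member passed 1.5-fold in either direction, where 4.04% of all genes were that much higher and 2.95% that much lower. The largest were Rps27l, from 33.9 to 40.8 FPKM (log2 ratio 0.26), Rps2, from 58.5 to 65.9 (0.17), and Rps26, from 55.4 to 61.9 (0.16). The smallest were Rps15a, from 27.3 to 26.1 FPKM (log2 ratio -0.07), Rpl22, from 25.9 to 24.8 (-0.06), and Rpl21, from 30.8 to 31.0 (0.01). Mitochondrial ribosomal proteins had a median of 0.16. The stalk genes Rplp0 (56.7 to 62.1 FPKM), Rplp1 (64.7 to 69.4) and Rplp2 (60.7 to 65.5) and the 5S gene Rpl11 (46.0 to 47.2) were all slightly higher in the 4 h library. As 64 and 62 of the members lay above the 99th percentile of their library and the highest values of any gene were 85.2 and 87.8 FPKM, these ratios were read at the top of the scale.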

How the data were processed

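Total RNA without ribosomal RNA was sequenced in 29 libraries. The authors deposited 1 FPKM value per gene and library, per the file headers, and no counts. TopHat2 2.0.8, TopHat, SAMtools, HTSeq 0.5.3p9 and build mm9 are named in the submitters' processing notes. Neither the annotation nor the scaling is given in the sources used here, and depth is unknown.

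The deposited values were not rescaled and were taken as log2(FPKM + 0.5). A gene was tested if it reached 1 FPKM in a number of libraries equal to the size of the smaller group. Tests were two-sided, with limma 3.58.1 in R 4.3.3 (lmFit, eBayes with trend and robust), adjusted by Benjamini-Hochberg over all genes, and called at a value under 0.05. A comparison of B cell groups used those 2 groups alone, and the 16 fibroblast libraries of total RNA shared 1 fit. The 4sU libraries gave ratios with no test. Alternatives were other pseudocounts (0.1, 1) and filters (none, 5 FPKM), median ratio scaling, quantile normalization, limma without trend and robust, other groups in the fit, a replicate block, Rpph1 level and leaving out each library. The fit was tested on simulated data. Fold changes are on the log2(FPKM + 0.5) scale.

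Values of 2 members and 1 marker gene are not reported here by name, and counts of calls include them. The members and lists were chosen with earlier results of these data known. Named were the 6 largest and the 6 of smallest adjusted p among called members, the 3 lowest where none was called, and fixed members (stalk, 5S, Rps6, Rpsa, Rps2, Rps27a, paralogs with parents, the 3 highest and lowest by level). Sequences and starts are from RefSeq on GRCm38.p6 and were matched by symbol only. Shared stretches were counted in the GENCODE vM21 transcripts. Matplotlib 3.10.9, pandas 2.3.3 and NumPy 2.4.6 under Python 3.11.15 made the tables and figures.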

Additional observations from a re-analysis of the deposited data

Results flagged for a closer look

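A library is listed where it lay far from the other 3 of its group for a member named by the rule given with the processing, or for the members' sum, by Dixon's test; other members were not tested so. This held in 15 of 246 sets of 4 libraries, and chance alone gives about 1 in 20. In B cells these were Rpl39l at 7.7 FPKM in WT_spleen replicate 6, Rpl22l1 at 764 in Tg_spleen replicate 4, Rplp2 at 3966 in Tg_spleen replicate 5 and Rps23 at 101 in Tg_spleen replicate 3. At 0 h of OHT, Rps23 was at 127 FPKM in replicate 1. At 4 h, replicate 1 stood apart in Rpl26 (127 FPKM) and Rpl28 (93.0), and replicate 3 in Rpl29 (99.7) and Rpl39 (107). At 8 h, replicate 2 stood apart in Rpl15 (99.9 FPKM) and Rpl22l1 (80.5), and replicate 4 in Rpsa (53.0). At 16 h, replicate 2 stood apart in Rpl10a (66.2 FPKM) and replicate 1 in Rpl21 (49.0) and Rps4x (106).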

How the results depend on the processing

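The count of members called higher in Tg_spleen over WT_spleen was 36. It was 11 after quantile normalization (13.3% of members, against 14.5% of all genes), 21 in the fit of all 3 B cell groups (25.3% against 10.6%), 7 and 6 in the high and the low Rpph1 libraries alone (8.43% against 6.39% and 7.23% against 13.7%), and 9 to 43 with 1 library left out (10.8 to 51.8%, against 9.42 to 18.8%), while the other settings gave 29 to 38. Only Rps27l was called under every setting, and 9 members were called whichever library was left out. Both counts were made for members alone, so the share of all genes that holds in this way is unknown. In the tumours over WT_spleen the count was 25, and it was 12 with 2 lower after quantile normalization (14.5% higher against 17.9%), 9 to 21 with 1 library left out (10.8 to 25.3%, against 16.0 to 22.9%) and 19 to 29 otherwise. The splits by Rpph1 were added after the data were seen. The ranges of 29 to 38 and 19 to 29 leave out the replicate block, whose counts follow. Fewer libraries are tested in the splits, with 1 left out and with that block. Elsewhere the cause was not tested.

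With replicate number as a block, 1 member was called higher in Tg_spleen (1.20%, against 4.58% of all genes) and 0 in the tumours, where 0 of all genes were called higher. In B cells this block kept only libraries whose number occurs in both groups, 3 and 4 for Tg_spleen and 1 and 3 for the tumours. With so few libraries, the counts cannot show what the block itself does. Libraries of the same number correlated at 0.101 and 0.128 (Tg_spleen) and at 0.036 and -0.011 (tumours) in their deviations from the group means. The numbers were thus not shown to pair those samples. In fibroblasts the same number gave 0.017 to 0.498 and different numbers -0.388 to 0.370. Number 4 gave 0.433, 0.396 and 0.498 with itself, against -0.388 to 0.052 with other numbers. There the block raised the calls over all genes at each time. At 16 h they went from 228 to 349 higher and from 1002 to 1722 lower. The main fibroblast fit held no block, and whether the numbers mark a batch was not tested.

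Tumours against Tg_spleen and all fibroblast times kept 0 calls in either direction under each setting. The tumours' median against Tg_spleen ran from -0.17 to 0.04 with 1 library left out. No called member changed sign. Depth is unknown in these files, and values near 1 FPKM (Rpl3l, Rpl39l) rest on the least signal.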

Other observations

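In the fibroblast files of total RNA, members shared their ups and downs between libraries in small sets. After each gene's mean and each library's mean over the members were taken out of the log2 values, the best-matching other member of each gene had a median Pearson correlation of 0.975 over 16 libraries, and 79 of 80 members had such a match at 0.9 or more. In the B cell files the median was 0.812 over 11 libraries, and 8 of 83 reached 0.9. Over all pairs the median was -0.08 in fibroblasts and near 0 in B cells, with 150 of 3160 and 4 of 3403 pairs at 0.9 or more. The best of many partners is a selected maximum, and these are descriptions across libraries that all genes share. The sets crossed the subunits: the stalk proteins Rplp0 and Rplp2 matched at 0.971, Rplp1 matched the large subunit proteins Rpl7 (0.994) and Rpl5 (0.980) but not Rplp0 (-0.096), and Rps4x matched Rpl10 (0.974). The cause was not tested.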
